A study of Mus musculus with 4 samples.

Results

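The genes described here are the members of the ATP-binding cassette (ABC) family whose symbols run from Abca to Abcg followed by a number. They were taken by that symbol pattern, whatever their values, and there were 50 of them among the 22456 symbols of the deposited expression table. Of the 50, 27 had a mean of at least 1 FPKM (fragments scaled to the length of the transcript and the size of the library) over the 4 libraries and were tested, and 23 lay below that level and are listed with their values only.

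The 4 RNA-seq libraries came from adult jejunal epithelium of mice on a 129xC57/Bl6xSvJ mixed background, 2 labelled Cre- control and 2 labelled Hnf4a;Cdx2 double-knockout. Mice of both groups, controls included, received 1 mg of tamoxifen on each of 5 days, so the groups differ by Cre and not by the drug. The epithelium was detached in 5 mM EDTA over 45 minutes at 4 °C. The labels name the 2 libraries of a genotype biological replicates; they do not say which promoter drives Cre or which exons it removes. Hnf4a and Cdx2 encode transcription factors of the gut epithelium, and the comparison asks how the RNA of the epithelium differs when both are targeted.

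ABC transporters use the energy of ATP to move substrates across membranes, and the family is divided by sequence into subfamilies A to G. In the gut, exporters on the brush border return drugs, conjugates and plant sterols to the lumen, and others on the basolateral side pass bile salts and conjugates towards the blood. Many members of subfamily A carry lipids, subfamily D works in peroxisomes and lysosomes, several members of subfamily B sit in mitochondria, and subfamilies E and F are soluble proteins that act on ribosomes and translation.

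As a check of the labels, Hnf4a stood at 156 and 202 FPKM in the controls and at 31.6 and 48.2 in the labelled double knockouts (limma, adjusted p = 0.0147). Cdx2 stood at 70.9 and 65.2 FPKM in the controls and was higher in the labelled double knockouts, 159.8 and 161 (limma, adjusted p = 0.0150), which goes against the label for that gene. Leaving out control replicate 1 ended both calls (limma adjusted p = 0.0624 for Hnf4a and 0.0696 for Cdx2), as did leaving out control replicate 2 (0.0875 and 0.0868), and double knockout replicate 2 was also needed for that of Cdx2 (0.0602 without it). A gene-level value includes exons outside a deleted part and does not show whether Cdx2 was deleted; the libraries are therefore called labelled double knockouts, and every direction rests on the labels. FPKM keep no read numbers, and the depth is unknown. Enterocyte markers were abundant in every library, with a summed level of 31815 to 47339 FPKM over 7 genes. Of these 2, Vil1 and Epcam, were called lower (limma, adjusted p = 0.0411 and 0.0300), beside 5.8% of all genes tested. Both calls ended with any 1 library left out, and Cdh1, Fabp1, Fabp2, Apoa1 and Apoa4 were not called. Markers of endothelium and of smooth muscle and pericytes were all under 1 FPKM in every library. The 4 listed fibroblast markers summed to 2.67 and 3.61 FPKM in controls and to 0.605 and 4.94 in the labelled double knockouts. Among them, Dcn stood at 0.427 and 3.97 FPKM in the labelled double knockouts. The 9 lymphocyte markers summed to 83.8 and 99.3 FPKM in controls and to 68.3 and 187 in the labelled double knockouts, the highest being replicate 2. Gzma and Gzmb, at 107 and 44.1 FPKM, made up most of that highest sum. Ptprc and Itgae lay between the control values in replicate 2, and the other lymphocyte markers lay above both. The part of these cell type markers in the results on the family was not tested.

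The family moved in both directions: the brush border exporters Abcb1a, Abcc2 and Abcg5 fell, the basolateral exporter Abcc3 rose, and outside the exporters Abce1 rose. Abcc6 was also called lower, but it passed the filter through the controls alone, so the direction was fixed and a call favoured beforehand. The test was limma on log2(FPKM + 1), two-sided, with p-values adjusted by the Benjamini-Hochberg method over all 10883 genes tested and a call at an adjusted p under 0.05. It called 6 of the 27 tested members, Abcc6 included, where 9.57% of all genes tested were called. Of these, 2 were higher, beside 3.77% of all genes, and 4 were lower, beside 5.8%; with FPKM estimated for each library alone, the split over all genes turned from 410 higher and 631 lower to 482 and 451, and that of the members was 2 and 3. The median log2 fold change of the 27 was -0.24, and that of all genes tested was 0.02; 16 of the 27 lay below 0. In 22 of the 27 the values of the groups did not overlap, which held for 60.7% of all genes tested. Of these members, 8 lay higher and 14 lower, beside 31.2% and 29.5% of all genes. The 22 include Abcc6 and Abcc4, each of which passed the filter through 1 group alone, so that a separation was favoured beforehand. With no filter on low values, which brings many low genes into the adjustment, 2 members were called, Abcb1a and Abcc3. Calls over all genes then numbered 707, where the main fit gave 1041. With any 1 library left out, fewer members were called, and so were fewer genes over all those tested. The median log2 fold change of the tested members then ran from -0.32 to -0.14.

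**Figure D1:**
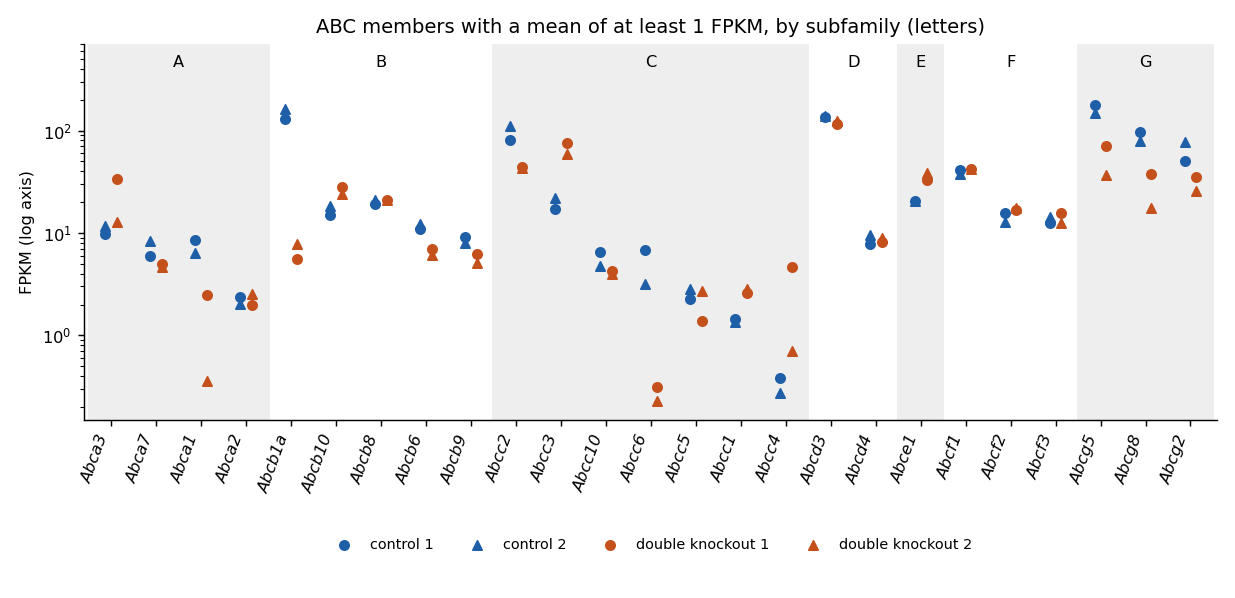
FPKM of 25 of the 27 tested members on a log axis, 1 symbol per library, grouped by subfamily and ordered by mean level within it; blue marks controls and orange the libraries labelled double knockout. Abcb1a drops from 128 and 164 FPKM to 5.61 and 7.73, and Abcc3 stands above both of its control values in both labelled double knockouts.

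Summed over the 50 genes, the family made up 946 and 1003 FPKM in the controls and 665 and 557 FPKM in the labelled double knockouts. This was 0.147% and 0.151% of all FPKM in the controls and 0.0964% and 0.0866% in the labelled double knockouts. The groups did not overlap, but with 2 values in each group the smallest two-sided p of an exact permutation test is 0.333, the value obtained here. Subfamilies B and G held most of the difference. Subfamily B summed to 199 and 248 FPKM in controls and to 82.3 and 78.4 in the labelled double knockouts, and subfamily G to 325 and 306 against 144 and 81.0. Subfamily C, by contrast, summed to 116 and 145 FPKM against 134 and 113, with overlapping groups, although it held 3 of the 6 called members, Abcc6 included. Its rises and falls were of similar size in FPKM.

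**Figure D2:**
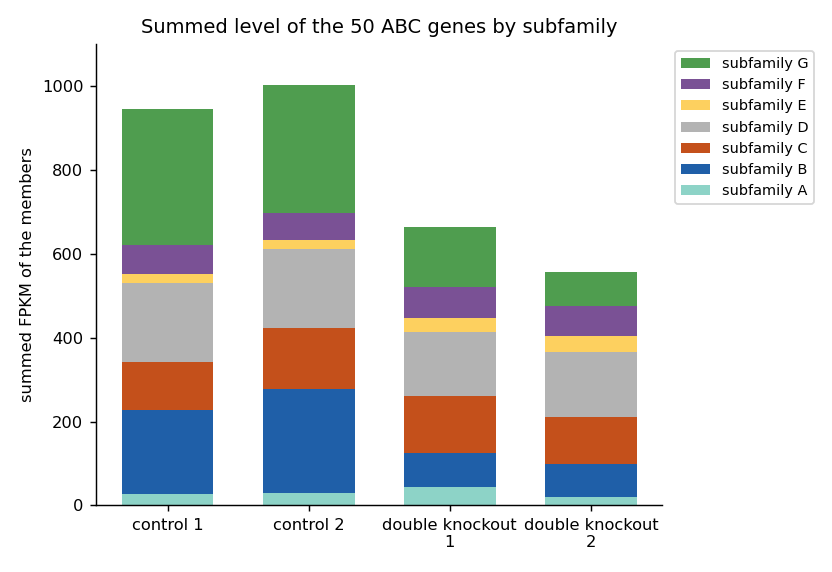
Summed FPKM of the 50 ABC genes in each library, stacked by subfamily from A at the bottom to G at the top. The total is 946 and 1003 in the controls against 665 and 557 in the labelled double knockouts, and the blocks of subfamilies B and G are the ones that shrink most.

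The make-up of the family changed with it. Abcb1a held 13.6% and 16.4% of the family's FPKM in the controls and 0.844% and 1.39% in the labelled double knockouts. Abcc3 held 1.83% and 2.20% in the controls and 11.4% and 10.5% in the labelled double knockouts, where it ranked second of the family in both libraries. Abcd3, a peroxisomal member, ranked first in both labelled double knockouts.

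Drug exporters are described first. Abcb1a (chromosome 5, 8660092 to 8748570, mm9), the gene of a P-glycoprotein that pumps many drugs out of the brush border, stood at 128 and 164 FPKM in the controls and at 5.61 and 7.73 in the labelled double knockouts. Every control value was far above both others. The means were 146 ± 25.2 and 6.67 ± 1.5 FPKM (SD, n = 2 each), and the log2 fold change with its SE was -4.27 ± 0.22 (limma adjusted p = 0.00203). In bulk tissue, fewer cells that express a gene and less of its RNA per cell cannot be told apart. Abcb1a was the member with the deepest fall, and it kept its call in each fit without 1 library (limma adjusted p from 0.00906 to 0.0284). It made up 64.4% and 66.2% of the FPKM of subfamily B in the controls and 6.82% and 9.86% in the labelled double knockouts. The close copy Abcb1b, a second P-glycoprotein gene, stayed between 0.0475 and 0.190 FPKM in all 4 libraries; how reads shared by such copies were assigned is not given in the sources used here.

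The 250 bases before the start of Abcb1a are shown because this member changed most and because they hold 3 copies of a sequence bound by HNF4. The search covered 4 motifs on either strand. CAAAGT is the core of the HNF4 site and lies within the longer form CAAAGTCCA, which was searched as well. The other motifs were a CDX site, spelled TTTATG, and a GATA site, spelled AGATAA. Windows of 300 bases (250 before and 50 after a start) came from RefSeq on GRCm38.p6, a later build than the mm9 of the files, and matched 38 of the 50 members in 45 windows. The region chr5:8566841-8567090 is printed on the plus strand, the strand of the gene, with CAAAGT or its reverse complement in capitals.
Abcb1a: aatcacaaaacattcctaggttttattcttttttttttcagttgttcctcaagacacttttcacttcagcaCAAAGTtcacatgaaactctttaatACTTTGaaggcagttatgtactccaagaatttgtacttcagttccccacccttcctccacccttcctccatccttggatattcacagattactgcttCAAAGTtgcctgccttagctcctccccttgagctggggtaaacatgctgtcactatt
The 3 copies begin 179, 154 and 57 bases before the start. CAAAGT occurred in 14.4% of all 32851 windows of this length and in 7 of the 45 windows of the family, and 3 or more copies occurred in 0.0913% of all windows. Neither TTTATG nor AGATAA was found in the Abcb1a window. The motifs were chosen after the sequences were seen, so these shares cannot show how unusual the 3 copies are. The matches describe letters and show no binding.

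Abcc2 (chromosome 19, 43856798 to 43912708, mm9), an apical exporter of glucuronide and glutathione conjugates, also fell, but less. Its values were 80.9 and 109.8 FPKM in the controls and 43.8 and 43.1 in the labelled double knockouts. The groups did not overlap, and the labelled double knockouts were close to each other. The difference was -1.10 ± 0.20 (SE) on the log2 scale, with a limma adjusted p of 0.0373. Each library proved necessary to this call, with limma adjusted p-values of 0.0624 and 0.115 without control replicates 1 and 2 and of 0.111 and 0.129 without double knockout replicates 1 and 2. Its upstream region, chr19:43782058-43782307 on GRCm38.p6, plus strand, is printed for comparison with that of Abcb1a and holds a single CAAAGT, 79 bases before the start.
Abcc2: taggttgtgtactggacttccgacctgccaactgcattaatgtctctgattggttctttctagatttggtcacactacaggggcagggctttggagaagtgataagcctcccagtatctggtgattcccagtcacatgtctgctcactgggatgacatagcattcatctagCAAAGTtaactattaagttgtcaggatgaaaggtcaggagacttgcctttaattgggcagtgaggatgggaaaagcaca
Of the family's other windows with CAAAGT, those of Abca7, Abcb6, Abcc4, Abcc5 and Abcd3, none belonged to a called member; no window of Abcc3 or Abcc6 was searched. The Abcd3 match, also the family's single CAAAGTCCA, lay after the start.

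Abcg2, the drug exporter known as breast cancer resistance protein, stood at 51.0 and 76.9 FPKM in the controls and at 35.2 and 25.8 in the labelled double knockouts. The groups did not overlap, yet the controls differed from each other by more than the gap between the groups. Its log2 fold change of -1.03, with a 95% interval from -1.73 to -0.33, was not called (limma, adjusted p = 0.0831). The ratio of Abcb1a to Abcg2 was 2.52 and 2.13 in the controls and 0.159 and 0.300 in the labelled double knockouts, so the order of these exporters was turned around.

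**Figure D3:**
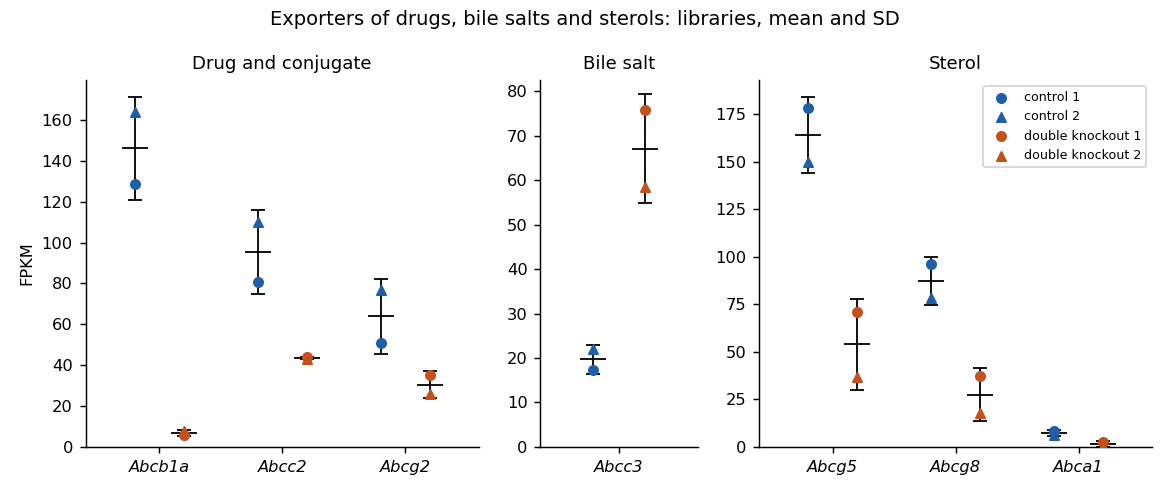
FPKM of the main exporters of drugs and conjugates, bile salts and sterols, from 0 on linear axes with a scale of its own in each panel; points are libraries (blue controls, orange labelled double knockouts), and bars give the mean ± SD of 2 libraries. Abcb1a, Abcc2, Abcg2, Abcg5, Abcg8 and Abca1 lie lower and Abcc3 lies higher in the labelled double knockouts, without overlap of the groups.

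The remaining drug and conjugate exporters were at lower levels, and none was called. Abcc1, a basolateral exporter of glutathione conjugates, stood at 1.45 and 1.36 FPKM in the controls and 2.60 and 2.85 in the labelled double knockouts (limma, adjusted p = 0.101). Abcc4, which exports cyclic nucleotides and conjugates, stood at 0.379 and 0.273 FPKM against 4.67 and 0.705, and it passed the filter through 1 labelled double knockout library alone. That library, replicate 1, lay 6.62-fold above replicate 2, and Abcc4 was not called (limma, adjusted p = 0.245); without double knockout replicate 2 the adjusted p was 0.0325. Abcc10 (4.79 to 6.53 FPKM against 3.93 to 4.28) and Abcc5 (2.24 to 2.81 against 1.40 to 2.69) were not called (limma, adjusted p = 0.293 and 0.613). In all, 2 of the 7 tested drug and conjugate exporters were called lower and 0 higher, beside 5.8% and 3.77% of all genes, at a median log2 fold change of -0.37.

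Bile salts leave the enterocyte across its basolateral membrane, and Abcc3 is an exporter of that side. Abcc3 (chromosome 11, 94204609 to 94254290, mm9) stood at 17.3 and 22.1 FPKM in the controls and at 75.8 and 58.4 in the labelled double knockouts. Both of the latter were higher than either control by more than the spread within a group. The mean rose 3.41-fold, from 19.7 ± 3.36 to 67.1 ± 12.3 FPKM (SD, n = 2 per group), or 1.72 ± 0.21 (SE) on the log2 scale (limma adjusted p = 0.0147). Without control replicate 1 or 2 the call ended (limma adjusted p = 0.0754 and 0.0655). Measured against Abcc2, its apical relative, Abcc3 stood at a ratio of 0.214 and 0.201 in the controls and of 1.73 and 1.35 in the labelled double knockouts. The bile salt export pump of the liver, Abcb11, did not exceed 0.0802 FPKM in any library, and Abcb4, which moves phosphatidylcholine into bile, was listed at 0 in all 4.

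Among 10 entries of a list of bile acid uptake and signalling genes, 8 were in the table and 6 were tested, with 1 called in each direction, beside 3.77% of all genes higher and 5.8% lower. Slc51a, a subunit of the organic solute transporter that carries bile acids across the same basolateral side, stood at 198 and 199.6 FPKM in the controls and at 30.7 and 42.6 in the labelled double knockouts (limma, adjusted p = 0.00718). It lost its call without control replicate 1 or 2 (limma, adjusted p = 0.0550 and 0.0577). Its partner subunit Slc51b stood at 141 and 156 FPKM against 113 and 121 and was not called (limma, adjusted p = 0.249). Slc10a2, the apical bile acid carrier, stood at 0.414 and 1.26 FPKM against 5.98 and 3.94. Its control mean lay below the filter, so it was tested through the labelled double knockouts alone. The direction was thus fixed and a call favoured beforehand. Slc10a2 was called higher (limma, adjusted p = 0.0394), a call that ended with any library left out. Abcc3 thus rose where the basolateral gene Slc51a fell.

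Of the 3 tested sterol exporters, Abcg5 was called lower and Abcg8 and Abca1 were not called. Abcg5 and Abcg8 encode proteins that join into the exporter of cholesterol and plant sterols of the brush border. Abcg5 (chromosome 17, 85057574 to 85082263, mm9) stood at 178 and 150.0 FPKM in the controls and at 70.8 and 36.9 in the labelled double knockouts, a difference of -1.66 ± 0.34 (SE) on the log2 scale (limma adjusted p = 0.0484). Abcg8 (chromosome 17, 85075642 to 85099673, mm9) stood at 96.0 and 78.2 FPKM against 37.4 and 17.6, a difference of -1.71 ± 0.37 (SE) on the log2 scale that was not called (limma, adjusted p = 0.0561). The groups did not overlap for either gene, and double knockout replicate 2 was the lowest library for each. Without double knockout replicate 1 both were called (limma, adjusted p = 0.0231 for Abcg5 and 0.0222 for Abcg8), whereas leaving out control replicate 1, control replicate 2 or double knockout replicate 2 ended the call of Abcg5 (limma adjusted p = 0.154, 0.157 and 0.0772). The call of Abcg5 also ended with quantile normalization, with FPKM estimated for each library alone and without the intensity trend (limma, adjusted p = 0.0586, 0.0503 and 0.0525).

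The ratio of Abcg5 to Abcg8 was 1.86 and 1.92 in the controls and 1.89 and 2.1 in the labelled double knockouts, so the partners stood in much the same proportion in all 4 libraries while their mean levels were 3.04-fold and 3.17-fold lower in the labelled double knockouts. Their loci share 6622 bases in the mm9 annotation of the files, on opposite strands, and the sources used here do not give strandedness, so that reads from shared stretches may not be told apart. In RefSeq the genes start back to back, and the 109 bases between their starts, chr17:84683012-84683120 on GRCm38.p6, are shown because both genes read outwards from them. They are printed on the plus strand, the strand of Abcg8, with AGATAA or its reverse complement in capitals.
Abcg5-Abcg8: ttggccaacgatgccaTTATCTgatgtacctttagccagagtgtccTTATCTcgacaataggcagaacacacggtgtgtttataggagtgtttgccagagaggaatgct
This stretch holds 2 copies of the GATA motif, and another copy lies just inside the Abcg5 transcript. Of all windows 11.2% held AGATAA and 0.107% held 3 or more copies. In the family, 6 members had the motif, Abcg5, Abcg8, Abca12, Abca14, Abca16 and Abcf2; the windows of Abcg5 and Abcg8 share these bases and count the same copies. This motif, too, was chosen after the sequences were seen, so the shares cannot show how unusual its copies are. Neither the Abcg5 nor the Abcg8 window held CAAAGT or TTTATG.

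Abca1, which passes cholesterol and phospholipid to apolipoprotein A-I, stood at 8.44 and 6.39 FPKM in the controls and at 2.48 and 0.362 in the labelled double knockouts. Both of the latter were lower than the controls but differed 6.86-fold from each other. The log2 fold change of -1.94, with a 95% interval from -3.16 to -0.72, was not called (limma, adjusted p = 0.0707); without double knockout replicate 1 the adjusted p was 0.0237, and with a pseudocount of 5 it was 0.0482. Macrophages also express Abca1. Of 6 macrophage markers 5 were in the table, summing to 6.56 and 9.59 FPKM in the controls and 11.8 and 10.1 in the labelled double knockouts. Cd14, at 3.34 and 4.27 FPKM against 10.5 and 7.86, made up most of the latter. Itgam was called lower and Cd14 higher (limma, adjusted p = 0.0410 and 0.0455), and both calls ended with any 1 library left out. Itgam passed the filter through the controls alone, so a fall was favoured beforehand. Csf1r, at 0.374 and 0.858 FPKM against 0.246 and 0.188, and the mean of Emr1 were lower in the labelled double knockouts. Cd68 had nearly equal means. The part of these markers in the result was not tested. Abcg1, another sterol exporter, lay below the filter, at 0.384 and 0.446 FPKM in the controls and higher, at 0.657 and 0.578, in the labelled double knockouts, and Abcg4 did not exceed 0.0220 FPKM.

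Of 12 tested genes of sterol uptake, esterification and lipoprotein assembly, 1 was called higher and 0 lower, beside 3.77% and 5.8% of all genes, at a median log2 fold change of -0.32. The one called was Scarb1, a receptor for high density lipoprotein, at 3.41 and 1.29 FPKM in the controls and 37.7 and 32.2 in the labelled double knockouts (limma, adjusted p = 0.00877). Npc1l1, the brush border importer of sterols that Abcg5 and Abcg8 work against, stood at 223 and 282 FPKM against 170.5 and 181 and was not called (limma, adjusted p = 0.168). Nr1h2 and Nr1h3, the LXR receptors that induce Abca1, Abcg5 and Abcg8, were not called either (limma, adjusted p = 0.315 and 0.883). The part of these receptors in the levels of the sterol exporters was not tested.

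Among 10 tested receptors and apical scaffolds tied to drug exporters, 2 were called lower and 0 higher, beside 5.8% and 3.77% of all genes. Pdzk1, a scaffold of the brush border with PDZ domains, stood at 236 and 201 FPKM in the controls and at 12.0 and 4.91 in the labelled double knockouts (limma, adjusted p = 0.00718; 0.0575 and 0.0577 without control replicates 1 and 2). Nr1i3, the receptor CAR, stood at 35.2 and 29.2 FPKM against 13.3 and 8.89 (limma, adjusted p = 0.0270), a call that ended when control replicate 1, control replicate 2 or double knockout replicate 2 was left out (limma adjusted p = 0.110, 0.102 and 0.0796). Nr1i2, the receptor PXR that induces Abcb1a, stood at 75.1 and 66.2 FPKM against 77.1 and 54.9, with overlapping groups (limma, adjusted p = 0.770). Rxra, another receptor of this list, stood at 35.2 and 32.9 FPKM against 22.4 and 17.0 and was not called (limma, adjusted p = 0.0698). The part of these receptors in the levels of the exporters was not tested.

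Abcc6, known for its part in keeping soft tissue free of mineral, was the other member of subfamily C called lower. Its values were 6.76 and 3.21 FPKM in the controls and 0.317 and 0.228 in the labelled double knockouts. The controls differed 2.11-fold, more than for any other tested member, yet both stood above the labelled double knockouts; the gene passed the filter through the controls alone. Its difference was -2.17 ± 0.34 (SE; limma adjusted p = 0.0249) on log2(FPKM + 1), a scale that understates the change of low genes. The call ended when control replicate 1 (limma adjusted p = 0.0672), double knockout replicate 1 (0.0734) or double knockout replicate 2 (0.0962) was left out, and with a pseudocount of 5 the adjusted p was 0.0501. Abcc8 and Abcc9, sulfonylurea receptors that regulate potassium channels, did not exceed 0.840 and 0.0417 FPKM.

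**Figure D4:**
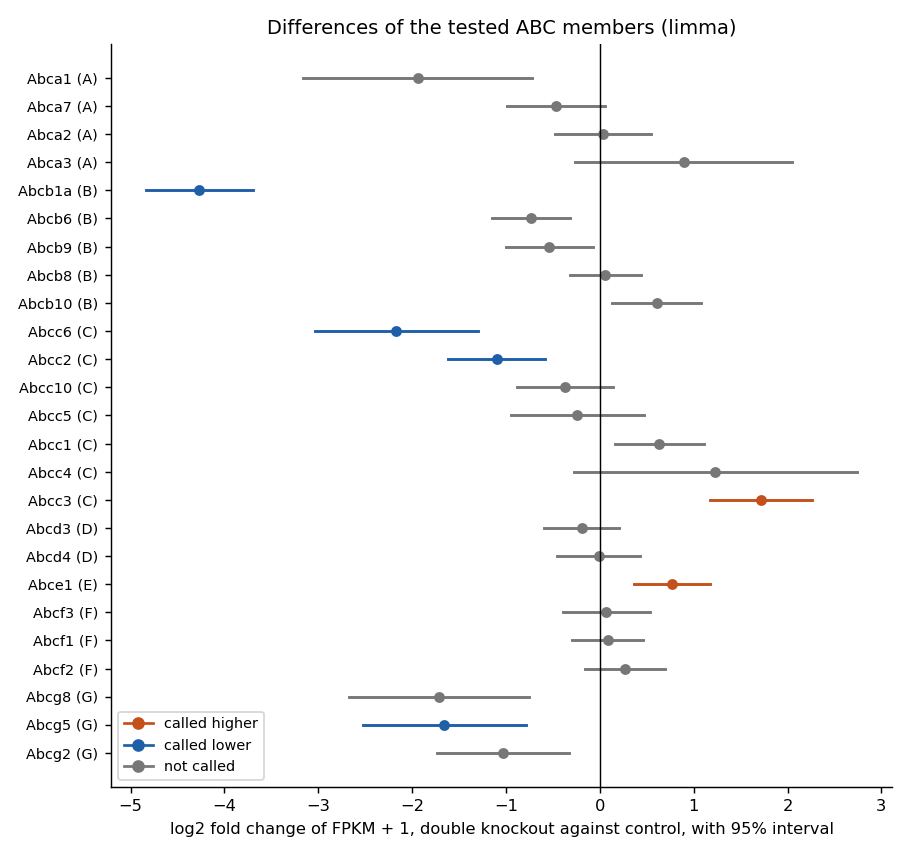
Log2 fold change of FPKM + 1 (labelled double knockout against control) with its 95% interval from limma for 25 of the 27 tested members, grouped by subfamily letter; orange marks members called higher, blue those called lower and grey those not called. Abcb1a lies farthest from 0 at -4.27, and the members of subfamily F lie near 0.

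The other lipid transporters of subfamily A held 15 members, of which 3 were tested and none was called. Abca3, the phospholipid transporter of lung surfactant, stood at 9.85 and 11.6 FPKM in the controls and 33.3 and 12.7 in the labelled double knockouts, where replicate 1 was the high library. It was not called (limma, adjusted p = 0.266), and without double knockout replicate 2 the adjusted p was 0.0464. Abca7 stood at 5.97 and 8.32 FPKM against 5.00 and 4.68, and Abca2 at 2.35 and 2.04 against 1.99 and 2.55 (limma, adjusted p = 0.217 and 0.939).

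Of the 5 mitochondrial and lysosomal members of subfamily B, all tested, none was called. Abcb6 and Abcb10 are tied to porphyrin and heme. Abcb6 stood at 10.97 and 12.1 FPKM in the controls and 6.98 and 6.10 in the labelled double knockouts, and Abcb10 at 14.9 and 18.5 against 27.9 and 23.8 (limma, adjusted p = 0.0572 and 0.111). The groups did not overlap, Abcb6 being lower and Abcb10 higher in the labelled double knockouts. Abcb9, a lysosomal peptide transporter, stood at 9.23 and 7.96 FPKM against 6.18 and 5.03 (limma, adjusted p = 0.131). Abcb8, of the mitochondrial inner membrane, stood at 19.3 and 21.1 FPKM against 20.9 and 21.2 (limma, adjusted p = 0.830). None of 5 tested genes of mitochondrial iron-sulfur cluster assembly was called.

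None of the 3 tested members of subfamily D was called. Abcd3, which brings branched-chain acyl groups and bile acid precursors into peroxisomes, stood at 136 and 139 FPKM in the controls and 116 and 125 in the labelled double knockouts. The values lay close together, and the 95% interval of its log2 fold change ran from -0.59 to 0.21 (limma, adjusted p = 0.472). Abcd4, a lysosomal protein of vitamin B12 handling, stood at 7.82 and 9.59 FPKM against 8.20 and 8.95, with overlapping groups (limma, adjusted p = 0.969). None of 3 genes that insert peroxisomal membrane proteins was called.

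Abce1, which splits ribosomes after termination, was the second member that rose. It stood at 20.3 and 20.6 FPKM in the controls and at 32.9 and 38.5 in the labelled double knockouts. The controls were almost equal and the groups well apart, with a difference of 0.77 ± 0.16 (SE) on the log2 scale (limma adjusted p = 0.0491). This call ended with any library left out (limma adjusted p from 0.0998 to 0.194), without the intensity trend (0.0597) and with a pseudocount of 5 (0.0502). Etf1, the release factor that acts just before Abce1, stood at 40.8 and 45.7 FPKM against 80.6 and 84.2 (limma, adjusted p = 0.0308) and was the one called among 4 tested genes of ribosome rescue and recycling, beside 3.77% of all genes called higher; its call, too, ended with any library left out (limma adjusted p from 0.0889 to 0.115). In subfamily F, Abcf1 stood at 37.7 to 41.2 FPKM in the controls and at 41.8 in both labelled double knockouts, Abcf2 at 12.7 to 15.5 against 16.9 to 17.5, and Abcf3 at 12.5 to 14.2 against 12.6 to 15.6, none of them called (limma, adjusted p = 0.755, 0.352 and 0.836).

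The 23 members below the filter stayed under 1 FPKM in every library, the highest being Abcc8 at 0.840 FPKM in double knockout replicate 1. Of these, 7 were listed at 0 in all 4 libraries, Abca6, Abca8a, Abca12, Abca15, Abca16, Abcb4 and Abcb5. Another 10 were at 0 in some libraries, and 6 were above 0 in all, Abca5, Abca14, Abcb1b, Abcc8, Abcg1 and Abcg3. In general, a 0 may also stand for an estimate that failed. The 7 members at 0 in all 4 libraries were, however, also at 0 in the FPKM estimated for each library alone, where their estimates were marked OK. The filter was not close to any member: the lowest tested mean was 1.51 FPKM (Abcc4) and the highest untested mean 0.557 FPKM (Abcc8). ABC genes that carry other names were not called: Cftr, the chloride channel, stood at 21.3 and 27.5 FPKM against 21.7 and 24.3, and the peptide transporter gene Tap1 at 10.6 and 9.36 FPKM against 8.69 and 55.3, where the high value is that of double knockout replicate 2 (limma, adjusted p = 0.838 and 0.435). Without double knockout replicate 1 the limma adjusted p of Tap1 was 0.0175.

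By the authors' deposited table, of the 27 members with a test there, 10 were called, beside 13.2% of all genes tested there, with 3 higher beside 5.9% and 7 lower beside 7.31%. It calls 5 of the 6 members called by limma, among them Abcc6, which passed the filter through the controls alone. The exception is Abce1, with a q of 0.0502 in the authors' deposited table. It further calls Abcg8, Abca1 and Abcg2 lower (q = 0.0264, 0.000868 and 0.0137 in the authors' deposited table), and Abca3 and Abcc4 higher (q = 0.0271 and 0.000868 in the authors' deposited table). The labelled double knockouts differed from each other 6.86-fold for Abca1, 6.62-fold for Abcc4, 2.62-fold for Abca3, 2.13-fold for Abcg8 and 1.37-fold for Abcg2. All 3 tested members of subfamily G were thus called lower in the authors' deposited table, against 1 by limma. That table was made from the same 4 libraries and is not independent evidence.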

How the data were processed

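The 4 libraries were RNA-seq of single-end reads of 75 bases, per the labels' protocols. The submitters' processing notes name build mm9, Cuffdiff, Cuffnorm, Cufflinks (2.1.1) and TopHat2 (2.0.9), with no roles. What the authors deposited was a table of 23735 rows, with no unit in its header and taken as FPKM normalized between libraries, a file of FPKM per library, and a table of their comparison with group FPKM, p-values and q-values. No read counts were used, so precision rests on the spread between 2 libraries per group. For each gene, limma combines that spread with the spread of other genes at a similar level. Whether a library is 1 animal is not stated, so p-values measure the spread between these libraries.

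Rows of 1 symbol were summed (160 symbols), and 1036 short RNA symbols were dropped. Genes averaging at least 1 FPKM were tested with limma (version 3.58.1, R version 4.3.3) on log2(FPKM + 1) with a genotype term and an intensity trend, two-sided, adjusted over all genes; an exact permutation test of 2 against 2 cannot go below 0.333. The procedure was run on simulated data with 200 genes changed by large folds, larger than those of most called members. That run does not show how well smaller changes are called. Same-numbered libraries did not deviate together (r = -0.0048 across genes). Named with all values were the called members and all tested exporters of drugs, bile salts and sterols; for other roles, where the rule asked for the 2 most abundant, the tested members were given, except 2 that are counted in every total but not reported singly here or drawn in the plots. Partner genes named without a call, and the members below the filter, were chosen after their values were seen. Members, roles and lists were chosen with earlier results of these data known, and the motifs after the sequences were seen. The 13 alternatives changed pseudocount, filter, scaling, FPKM source, variance model and pairing, or left out 1 library. Locus starts in the files count from 0 and were raised by 1.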

Additional observations from a re-analysis of the deposited data

How the results depend on the processing

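Of the 27 tested members, Abcb1a was called under all 13 alternatives, and Abcc3 under all but those without control replicate 1 or 2. With no filter but a mean above 0, 268 genes were called higher and 2 members were called, 1 higher and 1 lower, and the median of the family, then over more members, was -0.0020. Members called higher numbered 1 with a pseudocount of 5, 1 without the intensity trend and 1 with the replicate block, which called 5 members lower and 6 in all: Abca1 and Abcg8 gained a call (limma, adjusted p = 0.0405 and 0.0346), and Abcc2 and Abce1 lost theirs (0.0615 and 0.0906). The replicate numbers are not stated to pair the libraries. Leaving out 1 library in turn gave 171 to 693 genes called, 67 to 309 higher and 97 to 384 lower, and 1 to 5 members, 0 to 3 higher and 1 to 4 lower. The family's median was -0.35 with a pseudocount of 0.1, -0.31 with a mean of at least 5 FPKM, -0.11 with FPKM of each library alone, which moved the median of all genes from 0.02 to 0.17 and the split of calls from 410 higher and 631 lower to 482 and 451, and -0.32 to -0.14 with 1 library left out. No called member changed direction. Members not called that did were Abca2 (-0.0083 with quantile normalization, -0.094 to 0.16 with 1 library left out), Abcd3 and Abcd4 (0.032 and 0.087 with FPKM of each library alone, Abcd4 also -0.15 to 0.12 with 1 library left out), Abcb8 (-0.0026 to 0.12), Abcc5 (-0.55 to 0.071) and Abcf3 (-0.075 to 0.22), the last 3 with 1 library left out. Where an arm kept 1 library, it was assumed to vary like the other group. The cause of these shifts was not tested. Depth is unknown, so no detection limit is given.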
